A study of Mus musculus with 16 samples.

Results

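The cytosolic ribosomal proteins are the structural proteins of the ribosomes that translate mRNA in the cytoplasm. Their genes were taken as the protein-coding genes of GENCODE M21 whose symbol begins with Rpl or Rps and a number, together with Rpsa and the stalk genes Rplp0, Rplp1 and Rplp2. Pseudogenes, the ribosomal S6 kinases and Rps19bp1 were left out. The rule found 85 of the 22196 genes with rows in the files, which are 46 genes of the large subunit, 31 of the small subunit and 8 paralogs (Rpl3l, Rpl7l1, Rpl10l, Rpl22l1, Rpl36al, Rpl39l, Rps27l and Rps27rt). Of these, 80 passed the filter on low counts, among 12506 genes tested.

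The libraries hold RNA of mouse inguinal mammary gland, from a study of how a high fat diet in lactation and metformin, a drug that lowers blood glucose, affect expression in mid-lactation. The 4 groups were HFD with metformin, HFD control, NCD with metformin and NCD control, with 4 libraries each, all with the age label postnatal day 16. The labels do not expand NCD, and do not say whether day 16 is an age or a day after the dam gave birth. They do not name a strain, a dose of metformin or separate animals for the libraries of a group, so the spread behind each p-value may be technical.

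Each ribosome holds one copy of nearly every one of these proteins, and the pairs of stalk proteins are the exception. The proteins are made in large amounts, assembled on ribosomal RNA in the nucleolus by many assembly factors, and degraded when left unassembled. Their mRNAs begin with a run of pyrimidines at the 5′ end, through which the kinase complex mTORC1 and the protein Larp1 control their translation. The lactating mammary epithelium secretes milk proteins at a high rate and is rich in ribosomes on the endoplasmic reticulum.

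Totals over genes were 8649316 (HFD control 4) to 39156617 counts per library (NCD metformin 4), of which 107677 to 825265 belonged to the ribosomal protein genes. A set of 8 milk protein genes held 58.0 to 66.9% of the counts of a library and mitochondrial genes 1.97 to 3.67%. HFD control 4, the shallowest library, had the lowest level of 74 of the 80 tested genes, and the share over all genes was not computed. NCD control 3 stood apart by its skeletal muscle markers, with a summed 3671 CPM over 12 genes, against 0.868 to 139 CPM in the other 15 libraries.

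Counts could not always be placed on one gene, because the files list transcripts by their coding sequence and keep one copy of identical sequences. The coding sequence of Rps27, a protein of the small subunit, is identical over 255 bases to that of Rps27rt, and the copy listed is the one of Rps27rt. The row of Rps27rt, with a mean of 2031 counts, therefore holds the reads of both genes, while the row of Rps27 held 1, 3, 0 and 1 counts over HFD metformin, HFD control, NCD metformin and NCD control. Rps27l, the paralog on chromosome 9, differs from both at 61 of 255 bases (76.1% identity) and was counted separately. The coding sequences are shown because they decide which reads each row can hold, and these rows had the lowest metformin values of the family over both diets. Capitals mark the bases at which they differ, and the GENCODE M21 transcripts lie on GRCm38 at chr9:114982366-114982739 (minus strand, Rps27rt) and chr9:66946086-66949512 (plus strand, Rps27l).
Rps27rt: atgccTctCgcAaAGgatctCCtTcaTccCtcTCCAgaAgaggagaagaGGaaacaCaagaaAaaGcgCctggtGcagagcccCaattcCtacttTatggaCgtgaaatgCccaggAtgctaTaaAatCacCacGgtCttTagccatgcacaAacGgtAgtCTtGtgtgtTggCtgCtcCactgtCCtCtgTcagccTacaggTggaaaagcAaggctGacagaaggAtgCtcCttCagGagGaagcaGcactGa
Rps27l: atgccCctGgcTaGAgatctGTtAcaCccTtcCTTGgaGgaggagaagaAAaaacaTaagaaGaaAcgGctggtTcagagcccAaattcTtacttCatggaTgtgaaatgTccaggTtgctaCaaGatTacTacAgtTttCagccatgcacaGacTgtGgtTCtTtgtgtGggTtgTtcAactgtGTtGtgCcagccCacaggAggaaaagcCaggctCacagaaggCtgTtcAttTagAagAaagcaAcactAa

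The other 12 pairs of a ribosomal protein gene and a second gene of at least 90% identity mattered little, since the second gene held 0.01 to 0.45% of the counts of the pair. Rpl10 and Rps12 are identical in coding sequence to the pseudogenes Rpl10-ps3 and Rps12-ps3, and the copies listed were Rpl10 and Rps12.

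The start sites of some genes described with their values are shown, with and without a pyrimidine run, because such runs are the feature through which the family is controlled in translation. Each window holds 15 bases before the RefSeq start and 15 from it (GRCm38.p6, coding strand), with runs of at least 6 unbroken C or T bases in capitals where one lay within 5 bases of the start. They lie at chr4:86857353-86857382 (minus, Rps6), chr17:27635230-27635259 (minus, Rps10), chr17:24720048-24720077 (plus, Rps2), chr3:28805493-28805522 (plus, Rpl22l1), chr3:90213634-90213663 (minus, Rps27), chr9:114982725-114982754 (minus, Rps27rt), chr9:66946071-66946100 (plus, the upstream start of Rps27l), chr9:66946398-66946427 (plus, the downstream start of Rps27l), chr17:46782642-46782671 (minus, Rpl7l1), chrX:102189377-102189406 (minus, Rps4x), chr5:107900513-107900542 (plus, Rpl5) and chr4:136053379-136053408 (minus, Rpl11).
Rps6: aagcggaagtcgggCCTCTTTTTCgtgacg
Rps10: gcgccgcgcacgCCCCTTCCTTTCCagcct
Rps2: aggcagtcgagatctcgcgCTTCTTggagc
Rpl22l1: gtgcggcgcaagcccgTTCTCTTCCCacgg
Rps27: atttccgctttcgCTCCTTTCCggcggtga
Rps27rt: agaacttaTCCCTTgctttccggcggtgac
Rps27l, upstream start: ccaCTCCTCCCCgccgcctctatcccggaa
Rps27l, downstream start: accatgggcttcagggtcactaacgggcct
Rpl7l1: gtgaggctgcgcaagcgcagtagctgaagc
Rps4x: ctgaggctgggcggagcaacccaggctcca
Rpl5: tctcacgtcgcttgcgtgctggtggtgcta
Rpl11: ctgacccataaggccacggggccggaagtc

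Of the 85 genes, 65 matched a RefSeq promoter, with 77 promoters among them. Such a run lay within 5 bases of the start in 34 of these 77 promoters (44.2%), against 6905 of all 32851 promoters (21%). Runs that end before the annotated start were counted too, as in Rps27rt and the upstream start of Rps27l. An mRNA that begins at that start would not hold them. Rps6, Rps10 and Rpl22l1 held runs of 10, 13 and 10 bases, and Rpl7l1, Rps4x, Rpl5, Rpl11 and the downstream start of Rps27l held none of this length. A match is a description of the letters at the annotated start, and annotated starts can lie some bases from the start in use.

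The ribosomal protein genes lay close together in level. The scale is TPM, which is relative to the effective coding length, as a mean over the 16 libraries. The 75 tested genes that are not paralogs ranged from 136 TPM for Rpl3, which lies near the catalytic centre of the large subunit, to 1017 TPM for Rps14, a protein of the small subunit. Their median was 305 TPM with quartiles of 232 and 384, and 73 of the 75 lay between 100 and 500 TPM. The 2 others were Rps14 and Rpl23 (701 TPM). Rps24 (499 TPM), Rps27rt (485 TPM) and Rpl13a (478 TPM) came next, and their ranges over libraries, such as 373 to 659 TPM for Rps24 and 349 to 649 TPM for Rpl13a, overlapped. The median of all 12506 tested genes was 2.1 TPM.

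The paralogs were lower than the genes they resemble. Rpl7l1 had a mean of 11 TPM and Rpl22l1 of 59.9 TPM, against 202 TPM for Rpl22. Rpl36al had 121 TPM, against 200 TPM for Rpl36a, and Rps27l had 140 TPM, against 485 TPM for the joint row of Rps27rt and Rps27. In none of the 16 libraries did the TPM of Rpl22l1, which ranged from 31.5 to 103, reach the lowest TPM of Rpl22.

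The 5 genes that did not pass the filter held 0 to 357 counts over all libraries. Rpl10l and Rpl39l are copies known from the testis, and they held 0 and 7 counts. Rpl41, which encodes a very short protein, held 1 count, which does not show that the gene was silent, since its effective length in the files was 4 bases. Rpl39, at 156 bases, also had an effective length of 4 bases, and 10 of the 85 genes had one under 50 bases. TPM of these short genes rests on few possible read positions.

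Rpl3l, which takes the place of Rpl3 in striated muscle, held 357 counts, of which 305 came from NCD control 3. Its level was 9.68 CPM in that library, against 0.0298 to 0.228 CPM in the other NCD controls. NCD control 3 was the library with the high skeletal muscle markers given above. The row of Rpl3 itself was not high there, at 279 CPM, against 252, 286 and 278 CPM in NCD control 1, 2 and 4.

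**Figure D1:**
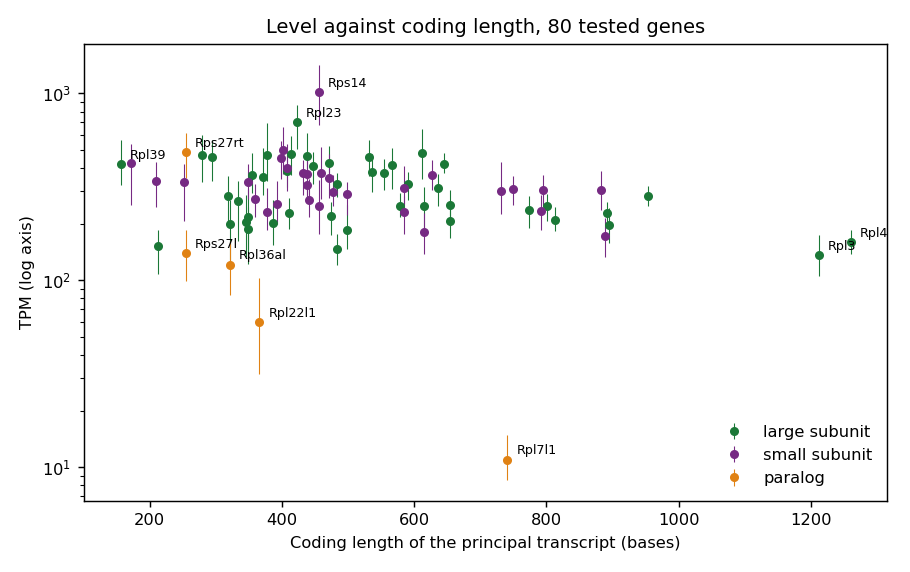
Mean TPM (log axis) of the 80 tested genes against the coding length of the principal transcript in bases, with bars from the lowest to the highest of 16 libraries. Most subunit genes lie between 100 and 500 TPM at every length, with Rps14 and Rpl23 above, and the paralogs Rpl7l1 and Rpl22l1 lie below.

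Short genes varied more between libraries of a group than long ones. The SD within groups, on log2 (CPM + 0.5), had a median of 0.177 over the 80 genes and ran from 0.0678 for Rplp0 to 0.547 for Rpl22l1. After Rpl22l1, it was largest for Rplp1 (0.352), Rpl35a (0.331), Rps21 (0.324) and Rplp2 (0.314). Its median was 0.233 in the 40 genes with the shorter and 0.152 in the 40 with the longer coding sequence, and its rank correlation with coding length was -0.82 across the 80 genes, which share their libraries and are not independent. All 6 genes called on NCD, and 31 of the 35 called over both diets, were among the 40 longer ones. The metformin log2 fold change of the 80 genes also rose with coding length. Its rank correlations were 0.36 on HFD, 0.30 on NCD and 0.41 over both diets.

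Ribosomal protein genes had a larger mean share of the counts in glands given metformin, without overlap between the groups on HFD and with overlap on NCD. To set aside the milk proteins, shares are of the counts outside the milk protein and mitochondrial genes. On HFD the share was 5.01, 5.19, 5.39 and 5.11% in the 4 metformin libraries, against 4.22, 4.59, 3.95 and 3.42% in the 4 controls. The metformin libraries all lay above the controls, with means of 5.17 ± 0.16% and 4.04 ± 0.495% (SD, n = 4 each). On NCD it was 5.23, 5.31, 4.39 and 6.36% in the metformin libraries, against 4.29, 4.71, 4.30 and 3.92% in the controls. These groups overlapped, since NCD metformin 3 lay below NCD control 2, and the means were 5.32 ± 0.806% and 4.30 ± 0.323% (SD, n = 4 each). As shares of all counts they were 1.68 ± 0.111% in HFD metformin, 1.41 ± 0.138% in HFD control, 1.84 ± 0.223% in NCD metformin and 1.61 ± 0.132% in NCD control (SD, n = 4 each). As shares of TPM, the groups overlapped on both diets. On HFD these shares were 2.33 to 2.87% with metformin and 1.98 to 2.38% in controls. On NCD they were 2.4 to 3.05% with metformin and 2.33 to 2.65% in controls.

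Small subunit genes took slightly more of the counts with metformin in the group means, with overlap on both diets, but not of the TPM. Counts of the small subunit over those of the large subunit had a mean ratio of 0.670 in HFD metformin, 0.653 in HFD control, 0.674 in NCD metformin and 0.659 in NCD control. The libraries ran from 0.658 to 0.684, 0.641 to 0.664, 0.659 to 0.682 and 0.649 to 0.665 in the same order. In TPM, which corrects for length, the ratios were 0.755, 0.759, 0.760 and 0.760 in the same order of groups. In bulk tissue a smaller share of a cell type and less RNA per cell cannot be told apart.

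**Figure D2:**
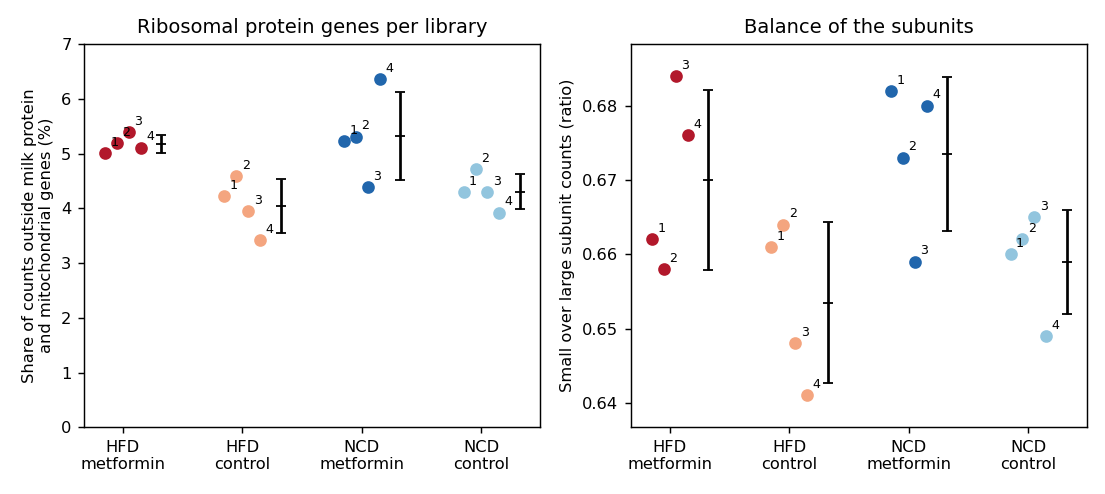
Share of counts outside milk protein and mitochondrial genes held by ribosomal protein genes (left, %) and ratio of small to large subunit counts (right, axis not from 0), for each library (points, numbered by replicate) with mean and SD of 4 libraries (bars). On HFD the metformin libraries (5.01 to 5.39%) lie above all controls (3.42 to 4.59%), and on NCD the groups overlap at NCD metformin 3.

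The highest of the 16 libraries was a metformin library for 80 of the 80 tested genes, in CPM after TMM scaling. The share of all genes with their highest level in a metformin library was not computed. The 80 genes share their libraries and are not independent, so this count describes a few libraries. It was NCD metformin 4 for 37 genes, HFD metformin 3 for 21 and HFD metformin 4 for 14. Libraries differed within groups too. The median deviation of the 80 genes from their mean over libraries, in log2, was 0.15, -0.01, 0.28 and 0.23 in HFD metformin 1 to 4 and -0.01, 0.06, -0.21 and -0.46 in HFD control 1 to 4. It was 0.15, 0.21, -0.13 and 0.30 in NCD metformin 1 to 4 and -0.15, 0.01, -0.08 and -0.28 in NCD control 1 to 4. HFD metformin 2 and NCD metformin 3 thus lay below the control libraries HFD control 2 and NCD control 2. In HFD metformin 2 this held for the shorter genes, whose median deviation was -0.16, and not for the longer ones, at 0.06.

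**Figure D3:**
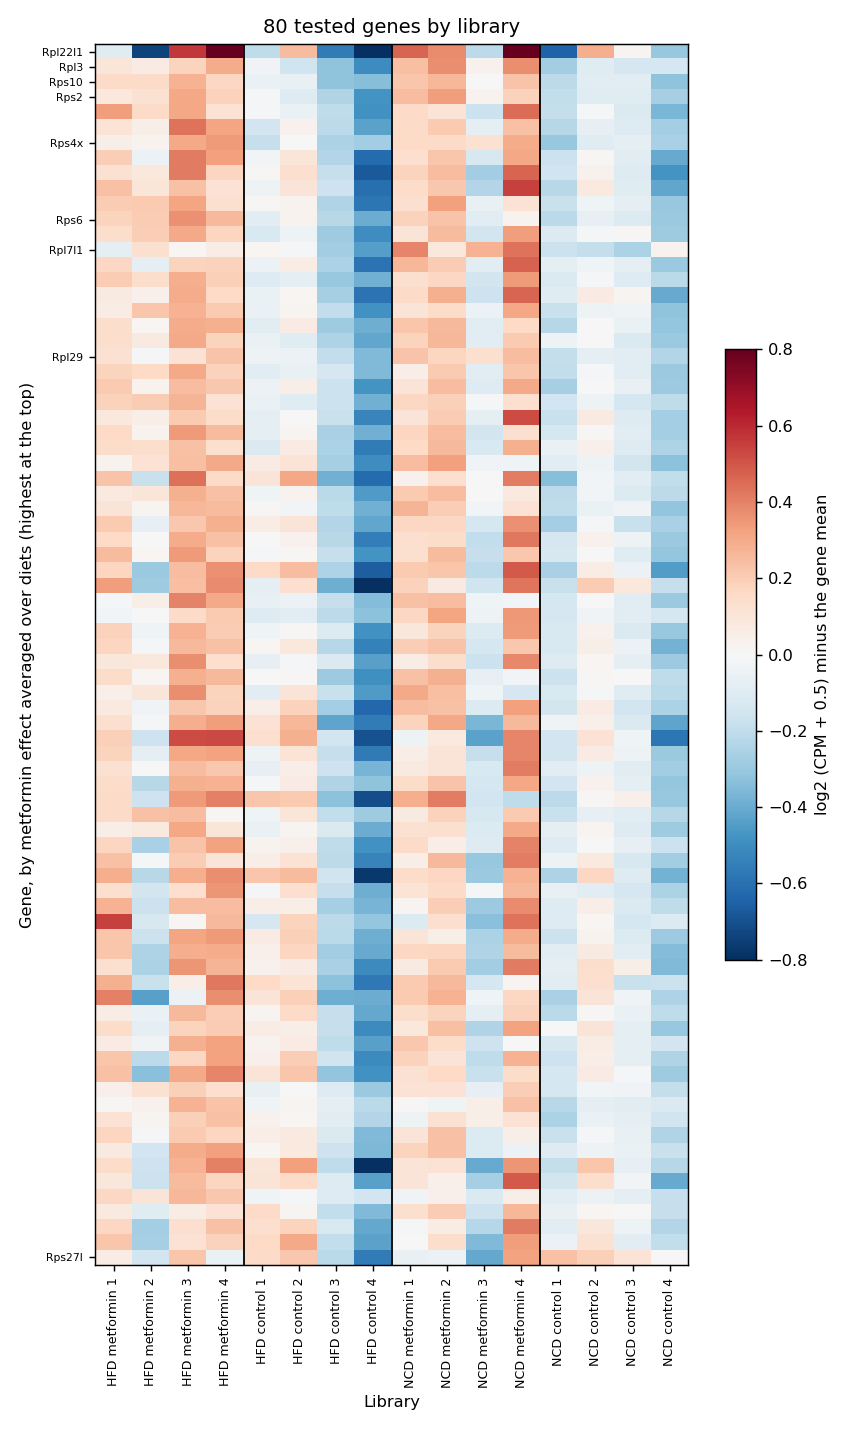
Level of the 80 tested genes (rows) in 16 libraries (columns) as log2 (CPM + 0.5) minus the mean of the gene, ordered by the metformin effect averaged over diets, with colours saturating at the ends of the scale and 9 genes labelled. Metformin libraries are mostly red, with NCD metformin 3 and, for short genes, HFD metformin 2 as exceptions, and HFD control 4 is the bluest column.

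Metformin effects on HFD were positive for all 80 tested genes, and none passed the test over all genes. The median log2 fold change was 0.30, a 1.23-fold higher level, against 0.00 over all tested genes, of which 50.5% were positive. By the quasi-likelihood test of edgeR (p adjusted by the Benjamini-Hochberg method) 0 of 80 were called, where 0.128% of all genes were called higher and 0.168% in either direction, and the smallest adjusted p was 0.107, for Rpl7a (0.37). At an unadjusted p under 0.05 there were 45 genes, against 12.8% of all genes, and DESeq2's Wald test called 11 of the 80 higher, where it called 1.15% of all genes higher. The metformin libraries lay above all controls for 29 genes, against 3.72% of all genes. Without HFD control 4 the median was 0.20, with 78 of 80 positive and 22 genes at that unadjusted p. Without HFD metformin 3 there were 24 such genes, and with scaling by library size only, in place of TMM, 26. With the trend on coding length and GC content removed the median was 0.20, with 78 of 80 positive and 34 such genes.

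Rps6, the protein of the small subunit that S6 kinases phosphorylate, had 489, 497, 558 and 518 CPM in the HFD metformin libraries, against 408, 441, 371 and 328 CPM in the HFD controls. Every metformin library lay above every control, with a log2 fold change of 0.41 ± 0.10 (SE, adjusted p = 0.128, edgeR). Rpsa, a small subunit protein also known as a laminin receptor, had 364, 378, 407 and 372 CPM in HFD metformin, against 303, 321, 271 and 234 CPM in HFD control. Its groups did not overlap either (0.43 ± 0.12, adjusted p = 0.149, edgeR). Rps3a1 (0.42) and Rpl12 (0.41) had similar values, and Rpl36a (0.43 ± 0.19) had groups that overlapped. The lowest values were those of Rps27l and Rps27rt (0.09 each), Rps25 (0.11) and Rps19 (0.12), the last a gene mutated in an inherited anaemia of humans.

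On NCD, 79 of the 80 genes had positive values with metformin, and 6 rose. The median was 0.24, against 0.00 over all tested genes, of which 49.7% were positive. The 6 were Rpl3, Rps2, Rps4x, Rps10, Rpl29 and the paralog Rpl7l1, or 7.5% of the 80 genes, where 4.01% of all genes were called higher (edgeR). None was called lower, against 6.03% of all genes. The metformin libraries lay above all controls for 14 genes, against 8.73% of all genes. The count rests on single libraries, with 0 called without NCD control 1, 2 or 3 or without NCD metformin 4, 1 without NCD metformin 1 or 2, and 2 without NCD control 4. With library size only 1 was called, and 3 with the trend on coding length and GC content removed, when 68 of 80 were positive with a median of 0.12.

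Rpl3 had 362, 396, 313 and 397 CPM in NCD metformin, against 252, 286, 279 and 278 CPM in NCD control. All 4 metformin libraries lay above all controls, NCD metformin 3 least so, and the log2 fold change was 0.42 ± 0.11 (SE, adjusted p = 0.0269, edgeR). On HFD the gene had 328, 321, 346 and 376 CPM with metformin, against 300, 274, 245 and 216 CPM in controls, again without overlap (0.41 ± 0.11, adjusted p = 0.142, edgeR). Rpl3 (ENSMUSG00000060036.14) lies on chromosome 15 from 80077791 to 80091868 of GRCm38.

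Rps2 and Rps10 lie near where mRNA enters the small subunit. Rps2 had 679, 723, 583 and 650 CPM in NCD metformin, against 500, 535, 536 and 476 CPM in NCD control. Rps10 had 213, 219, 183 and 214 CPM, against 158, 172, 171 and 146 CPM. Both groups were apart, with 0.36 ± 0.10 (SE) for each (adjusted p = 0.0379 for Rps2 and 0.0326 for Rps10, edgeR). In the HFD groups Rps10 had 203, 203, 221 and 205 CPM with metformin and 176, 175, 146 and 144 CPM in controls, also apart (0.38 ± 0.10, adjusted p = 0.13, edgeR). Rps4x, the X-linked gene of a small subunit protein, had 371, 369, 361 and 408 CPM in NCD metformin, against 269, 311, 316 and 277 CPM in NCD control. Its groups were apart on NCD and had the same log2 fold change, 0.36, on both diets (adjusted p = 0.0335 on NCD and 0.152 on HFD, edgeR).

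Rpl29, of the large subunit, had 103, 98.9, 95.9 and 104 CPM in NCD metformin, against 76.7, 83.5, 82.5 and 74.3 CPM in NCD control, with no overlap (0.34 ± 0.09 SE, adjusted p = 0.0296, edgeR). Rpl7l1 is a paralog of Rpl7 and was the called gene of the lowest level. It had 20.3, 16.3, 18.7 and 20.9 CPM in NCD metformin, against 13.6, 13.4, 12.8 and 15.7 CPM in NCD control. The groups were apart, though by 16.3 against 15.7 CPM at the closest (0.46 ± 0.11, adjusted p = 0.0246, edgeR). On HFD it had 14.5, 16.8, 15.5 and 16.0 CPM with metformin, against 15.5, 15.2, 12.6 and 11.2 CPM in controls, and these overlapped (0.20 ± 0.12, adjusted p = 0.503, edgeR). The difference between its metformin effects on HFD and NCD was -0.26 ± 0.16 (interaction, adjusted p = 0.624, edgeR).

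**Figure D4:**
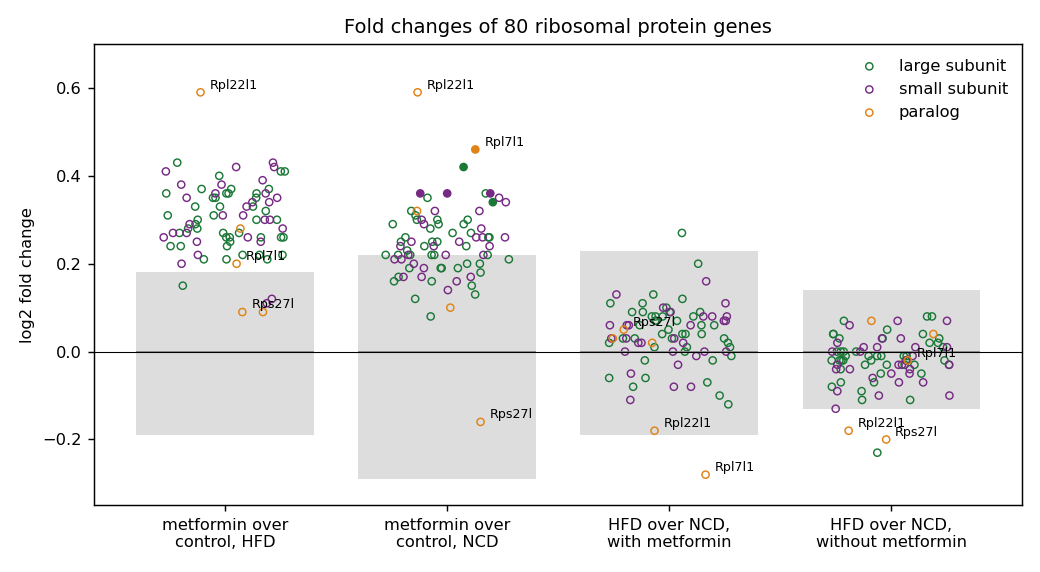
Log2 fold changes of the 80 tested genes (points, filled where called by edgeR at an adjusted p under 0.05) in 4 comparisons, with the range between the quartiles of all 12506 tested genes (grey bars). Metformin values lie above 0 for 80 genes on HFD and 79 on NCD, and diet values lie around 0.

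Over both diets together, 35 of the 80 genes rose with metformin and none fell. The median log2 fold change was 0.28 (1.22-fold), against -0.01 over all genes, and 79 of 80 were positive, against 48.8% of all genes. With the trend on coding length and GC content removed, the median was 0.16 and 77 were positive. The 35 are 43.8% of the tested genes, where 5.82% of all genes were called higher and 5.57% lower (edgeR). They were 21 of 45 genes of the large subunit, 13 of 30 of the small subunit and 1 of 5 paralogs (Rpl7l1). This comparison pools the same libraries as the metformin effects on each diet. The number of genes called fell to 13 when NCD metformin 2 was left out, to 15 when NCD control 1 or HFD metformin 3 was, to 16 for NCD control 4, to 18 for HFD control 3 or 4, to 21 for NCD metformin 1 and to 23 for NCD control 3 or NCD metformin 4. It was 15 with library size only, 23 with no filter and 13 with the trend on length and GC content removed.

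Among those of the 35 that stayed called under each of 24 alternatives were Rpl3, Rpl4, Rpl7a, Rps2, Rps3a1, Rps4x, Rps6 and Rps10. Rpl3 rose by 0.41 ± 0.08 (SE, adjusted p = 0.00498, edgeR), and its 8 metformin libraries all lay above the mean of the controls. Rps10 and Rps2 rose by 0.37, Rps4x and Rps3a1 by 0.36, Rps6 by 0.34 and Rpl4 and Rpl7a by 0.31 on the log2 scale, with standard errors of 0.06 to 0.08. Rpl4 encodes a protein that lines the exit tunnel of the nascent chain. The calls of Rpl29 (0.31), Rpl13 (0.31) and Rpl7l1 (0.33) ended under 1 of the 24.

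In the large subunit the other called genes included Rpl12 (0.36), Rpl23 (0.35), Rpl24 (0.32), Rpl5 (0.31), Rpl17 (0.30), Rpl18 (0.30), Rpl8 (0.30), Rpl27a (0.29), Rpl10a (0.28), Rpl15 (0.28), Rpl26 (0.26), Rpl19 (0.25), Rpl6 (0.21), Rpl10 (0.20) and Rplp0 (0.17). In the small subunit they included Rpsa (0.34), Rps15 (0.34), Rps18 (0.33), Rps3 (0.31) and Rps9 (0.28). These are log2 fold changes over both diets. The calls of Rpl26 and Rplp0 were lost in 19 of 24 alternatives each.

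Rpl5 and Rpl11 form, with a small ribosomal RNA, the complex that can bind Mdm2 and so restrain the degradation of p53. Rpl5 was called (0.31 ± 0.09 SE, adjusted p = 0.0303, edgeR), with 361 to 420 CPM in HFD metformin, 254 to 366 CPM in HFD control, 329 to 437 CPM in NCD metformin and 289 to 353 CPM in NCD control. Rpl11 was not (0.21 ± 0.10, adjusted p = 0.174, edgeR), and the difference between these genes was not tested. Mdm2 itself was lower with metformin on NCD, by a log2 fold change of -0.78 ± 0.13 (SE, adjusted p = 0.00743, edgeR).

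The stalk of the large subunit, which recruits translation factors, is built of Rplp0, Rplp1 and Rplp2. Rplp0 was the least variable of the family and had 666, 640, 715 and 690 CPM in HFD metformin and 582, 589, 553 and 535 CPM in HFD control. These groups were apart (0.26 ± 0.08 SE, adjusted p = 0.164, edgeR). In NCD metformin it had 583, 611, 549 and 615 CPM, against 561, 577, 566 and 524 CPM in NCD control, which overlapped (0.08 ± 0.08, adjusted p = 0.516, edgeR). The difference of these effects was 0.18 ± 0.11, the lowest p of the family for the interaction (adjusted p = 0.593, edgeR). Rplp1 (0.27 ± 0.16) and Rplp2 (0.26) were not called over both diets. Rps27a, made as a fusion with ubiquitin, had 0.23, and Rps19, Rps25 and Rps14 had 0.15, 0.13 and 0.35, none of them called.

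Rps27l was the only gene of the 80 with a negative value with metformin on NCD. This paralog is known as a target of p53 in human and mouse cells. It had 20.8, 17.9, 23.3 and 19.2 CPM in HFD metformin, against 22.2, 23.2, 17.1 and 13.4 CPM in HFD control. In NCD metformin it had 19.1, 19.3, 14.9 and 25.1 CPM, against 23.6, 22.8, 21.6 and 19.9 CPM in NCD control. The groups overlapped on both diets, with log2 fold changes of 0.09 ± 0.17 on HFD and -0.16 ± 0.17 on NCD (SE, adjusted p = 0.878 and 0.559, edgeR), so no change in either direction was detectable at this spread.

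The joint row of Rps27rt and Rps27 had 82.2, 58.6, 76.4 and 80.1 CPM in HFD metformin, against 78.6, 87.1, 61.3 and 52.2 CPM in HFD control, and 70.3, 77.5, 54.9 and 88.9 CPM in NCD metformin, against 68.1, 76.5, 66.1 and 61.4 CPM in NCD control. Its groups overlapped on both diets (0.09 ± 0.17 on HFD and 0.10 ± 0.17 on NCD, SE, adjusted p = 0.873 and 0.738, edgeR).

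Rpl22l1 had the highest fold change of the family on both diets and the largest spread. In mouse cells Rpl22, its partner gene, is known to repress it. It had 13.8, 8.65, 22.1 and 27.5 CPM in HFD metformin, against 12.8, 17.7, 9.9 and 7.03 CPM in HFD control. In NCD metformin it had 20.6, 19.4, 12.7 and 28.8 CPM, against 9.27, 18.2, 15 and 11.9 CPM in NCD control. The groups overlapped on both diets, and the value was 0.59 ± 0.34 on each (SE, adjusted p = 0.503 on HFD and 0.272 on NCD, edgeR). Rpl22 had 0.26 ± 0.15 on HFD and 0.22 ± 0.15 on NCD, not called.

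**Figure D5:**
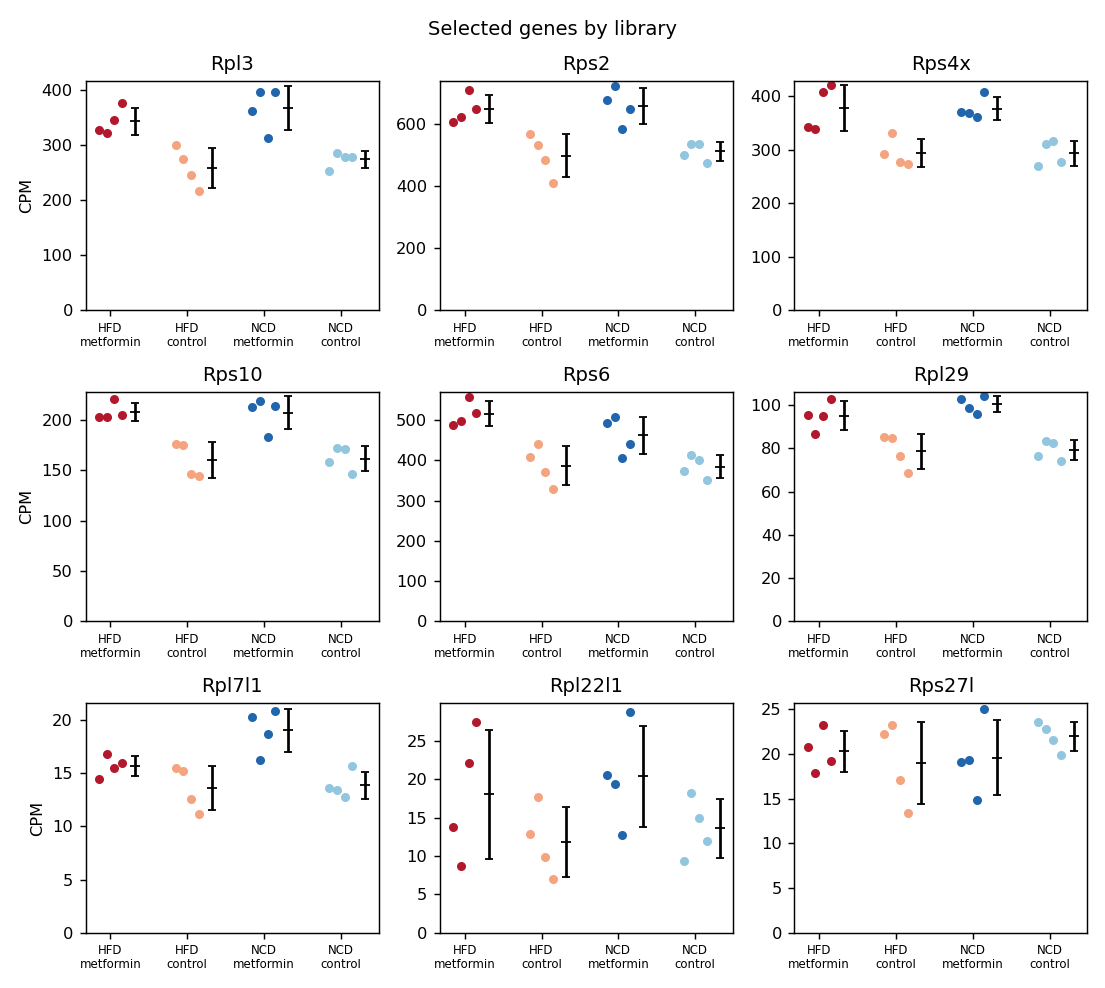
CPM after TMM scaling of 9 genes in each library (points) with mean and SD of 4 libraries (bars). The means with metformin lie above those of the controls for Rpl3, Rps2, Rps4x, Rps10 and Rpl29 on both diets, without overlap of the libraries on NCD. The groups overlap for Rpl22l1 and Rps27l.

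No gene of the family was called between HFD and NCD, by edgeR or DESeq2. With metformin, 60 of 80 genes had positive values, against 49.5% of all genes, with a median of 0.04, and 0 were called, where 2.36% of all genes were called (edgeR). At an unadjusted p under 0.05 there were 2 genes, against 19.2% of all genes. They were Rplp0 (0.20 ± 0.08 SE, adjusted p = 0.149, edgeR), whose HFD libraries lay above all NCD libraries, and Rpl7l1 (-0.28 ± 0.11, adjusted p = 0.191, edgeR). Rplp1 (0.27) and Rps6 (0.16) were the other high values, and Rpl22l1 (-0.18), Rpl10a (-0.12) and Rps18 (-0.11) the other low ones.

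Without metformin, 28 of 80 genes had positive values, against 50.5% of all genes, with a median of -0.02, and 0 were called, where 0.064% of all genes were called (edgeR). At an unadjusted p under 0.05 there were 0 genes, against 7.04% of all genes. Values ran from -0.23 for Rpl36a, -0.20 for Rps27l, -0.18 for Rpl22l1 and -0.13 for Rpsa to 0.08 for Rplp1 and Rpl30. Over both treatments the median was 0.01 with 0 called, where 0.936% of all genes were called. With library size only, the diet values moved with those of all genes and 1 member was called lower with metformin, 4 over both treatments.

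The metformin effect did not differ detectably between the diets. The interaction, the metformin effect on HFD minus that on NCD, had a median of 0.05 over the 80 genes and ran from -0.26 (Rpl7l1) to 0.27 (Rpl36a). None was called, as for all genes (0% called, edgeR), and at an unadjusted p under 0.05 there were 0, against 9.94% of all genes.

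Other components of the ribosome and of its assembly were read from lists, which were chosen with earlier results of these data known. Of the 3 ribosomal proteins with other symbols, Rack1, a scaffold on the small subunit, rose on NCD (0.32 ± 0.09 SE, adjusted p = 0.0319, edgeR), and also rose over both diets (0.34). On HFD all 3 had positive values with a median of 0.37, and none was called.

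Among 69 ribosome assembly factors, 11 rose with metformin on NCD (15.9%, against 4.01% of all genes) and 0 fell (against 6.03% of all genes), with 56 positive (81.2%, against 49.7% of all genes) and a median of 0.20. Over both diets 10 rose and 1, Utp20, fell (-0.33), against 5.82 and 5.57% of all genes, with a median of 0.12. The called genes included Ddx56 (0.74 ± 0.13 SE, adjusted p = 0.00743), Bop1 (0.69 ± 0.12, adjusted p = 0.00788), Nhp2 (0.77 ± 0.15, adjusted p = 0.0104) and Imp4 (0.64 ± 0.14, adjusted p = 0.0153, all edgeR). Bop1 acts in the maturation of large subunit RNA, Nhp2 in the snoRNPs that modify ribosomal RNA, and Imp4 in small subunit assembly. On HFD 39 of the 69 were positive with a median of 0.03, and 0 were called, with 6 at an unadjusted p under 0.05, against 12.8% of all genes. Of the HFD over NCD values with metformin, 60 of 69 were negative with a median of -0.20 and 0 called, with 24 at an unadjusted p under 0.05, against 19.2% of all genes. The difference between the metformin effects on the diets was called for no gene.

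Of 14 genes of RNA polymerase I and its factors, which make ribosomal RNA, 0 were called with metformin on either diet, with medians of -0.07 on HFD and 0.02 on NCD. Of all genes, 4.01% were called higher and 6.03% lower on NCD, and 0.168% in either direction on HFD (edgeR). Among 20 other mRNAs known to begin with a pyrimidine run, translation factors for the most part, 17 were positive on each diet with medians of 0.21 on HFD and 0.15 on NCD. On NCD 1 was called higher, Eif3l, an initiation factor subunit (0.33), which is 5% of the 20 and near the 4.01% of all genes. Over both diets 7 were called higher (35%, against 5.82% of all genes), among them Eef1g (0.36), Tpt1 (0.35) and Naca (0.30). Of 22 tested genes that control the translation of these mRNAs or the p53 response to free ribosomal proteins, 3 rose and 3 fell on NCD. Together these are 27.3% of the 22, against 4.01% of all genes called higher and 6.03% lower. The list was chosen with earlier results of these data known, so this share is a description only. Rragd, a Rag GTPase, rose by 1.34, Rheb, the GTPase that activates mTORC1, by 0.36 and Eif4e, the cap-binding factor, by 0.31. Mdm2 fell by 0.78, Deptor, an mTOR inhibitor, by 0.73 and Tsc1 by 0.52 on the log2 scale. On HFD none of the 22 was called, where 0.168% of all genes were, and their log2 fold changes ran from -0.51 to 1.39. Over both diets 2 of the 22 were called higher and 4 lower, against 5.82% and 5.57% of all genes.

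Among the lists of cell markers, fibroblast markers had the most calls with metformin over both diets, and the other lists had few or none. Of all genes, 5.82% were called higher and 5.57% lower in that comparison (edgeR). Markers of fibroblasts had negative values for 7 of 7 genes over both diets, with 3 called (Fn1 at -0.90, Pdgfra at -0.81 and Col3a1 at -0.46) and summed levels of 260 to 312 CPM in HFD metformin, 278 to 504 CPM in HFD control, 216 to 344 CPM in NCD metformin and 336 to 352 CPM in NCD control. Of 10 adipocyte markers none was called, with a median of 0.49 on HFD and 0.52 on NCD and sums of 280 to 783, 264 to 485, 446 to 1109 and 196 to 1403 CPM in the same order of groups. Of 8 milk protein genes, Glycam1 was lower over both diets (-0.88), the others were not called, and the median was 0.11. Of 10 macrophage markers 9 had negative values over both diets (median -0.27, 0 called), and 1 was called lower on NCD, where 6.03% of all genes were.

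Some lists differed between the diets in their values, a difference that was called for no gene. Of 9 cell cycle genes 8 were positive on HFD (median 0.68, 0 called) and 3 on NCD (median -0.10), and over both diets Ccnb1 rose (1.0). Their sums were 49.5, 56.4, 72.7 and 140 CPM in HFD metformin 1 to 4, so the highest value was that of 1 library. They were 49.1 to 62.1 CPM in HFD control, 42.6 to 55.6 CPM in NCD metformin and 44.3 to 54.7 CPM in NCD control. Of 8 endothelial markers 3 were positive on HFD (median -0.14) and 6 on NCD (median 0.35), where 1, Kdr, rose (0.75), and the sums were 66.0 to 83.9, 73.3 to 82.6, 70.8 to 119 and 60.5 to 80.5 CPM in the same order of groups. Of 7 luminal markers 7 were positive on HFD (median 0.24) and 2 on NCD (median -0.17), where 1, Cldn3, fell (-0.55), and the sums were 442 to 524, 343 to 489, 341 to 398 and 393 to 452 CPM. Of 7 basal markers 5 were positive on each diet and none was called. Of 11 lymphocyte and plasma cell markers 7 were tested, and over both diets 5 were positive (median 0.44) and 1, Ptprc, fell (-0.54). Skeletal muscle markers were called lower with metformin on NCD for 11 of 12 genes, and NCD control 3 was the one library of that comparison with high levels. Without that library the median of the ribosomal protein genes on NCD was 0.25, with 79 of 80 positive. The part of the other cell types in the ribosomal protein values was not tested.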

How the data were processed

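Per the labels' protocols, the kit was NEBNext Ultra II Directional. Each deposited file gives, per the file headers, the estimated count, TPM, length and effective length of every transcript. Salmon 1.3.0, DESeq2 1.28.1 and GRCm38.p6 are named with no role, per the submitters' processing notes. The 58204 transcripts listed are coding sequences, so untranslated regions are not measured. Lengths differed from the annotated coding length by at most 3 bases in all 56855 transcripts checked.

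Counts of 57452 transcripts gave 22196 GENCODE M21 genes after summing and rounding, and 752 transcripts without a match (0.165 to 0.218% of each library's counts) were dropped. A floor of 3 counts was 0.077 to 0.347 CPM, which covers counting error only. No 2 libraries looked like one library deposited again (lowest chi-square per degree of freedom 12.53 over 120 pairs). The main test was the quasi-likelihood one of edgeR 4.0.16 in R 4.3.3, with 4 group means fitted to all 16 libraries, after filterByExpr and TMM scaling. This left 12506 genes, 12 residual and 4.38 prior degrees of freedom. Adjusted p is by Benjamini-Hochberg over all tested genes, called under 0.05, and tests were two-sided. Log2 fold changes are metformin over control and HFD over NCD, and SE is that of the log2 fold change. Levels in CPM are after TMM scaling. The fit was tested on simulated counts.

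The genes and lists were chosen with earlier results of these data known. Named are called genes, the 4 highest and 4 lowest per comparison, the 5 highest and 5 lowest in TPM, the 5 most variable, the paralogs and genes of known role. The split by coding length were chosen after values were seen. Alternatives were other size factors, library size only, no filter, DESeq2 1.42.0, only the groups compared, a term for the gap in title numbers, removal of a trend on coding length and GC content, counts rebuilt from TPM, and leaving out each library. Promoter sequences are RefSeq's on GRCm38.p6. Values of some genes are not reported here by name.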

Additional observations from a re-analysis of the deposited data

Results flagged for a closer look

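Each of 23 genes was checked in each group of 4 libraries, with further library sums, for one library far from the other 3, in 104 checks, of which chance flags about 1 in 20. It found 3. Rps10 was 221 CPM in HFD metformin 3, against 203 to 205 CPM in the others of its group, and 183 CPM in NCD metformin 3, against 213 to 219 CPM. Rpl3l was 9.68 CPM in NCD control 3, against 0.0298 to 0.228 CPM, and this library had the high skeletal muscle markers.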

How the results depend on the processing

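Of 132 settings of summary values that leave out no library, 121 stayed close to the main value. For numbers of genes called, close meant a ratio within a set limit. For medians and log2 ratios it meant a move smaller than the SD within groups. Direction was not part of this rule. The median for HFD over both treatments went from 0.01 to -0.16 with library size only and counted as close. With library size only, which moved the median of all genes too, the number of genes called was 1 for metformin on NCD, 15 over both diets, 1 (lower) for HFD with metformin, where the median was -0.14, and 4 (lower) for HFD over both treatments. With the trend on coding length and GC content removed it was 3 on NCD and 13 over both diets, with no filter 23 over both diets, and with DESeq2 11 on HFD. In TPM the log2 ratio of small to large subunit genes was 0.001 on NCD and -0.007 on HFD for metformin over control. The causes were not tested.

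Leaving out each library gave 0 to 7 calls for metformin on NCD, 0 to 0 on HFD, 13 to 48 over both diets, and 0 for each diet comparison and the interaction. Medians ran from 0.19 to 0.33 on NCD, 0.20 to 0.39 on HFD, 0.22 to 0.32 over both diets, -0.06 to 0.10 for HFD with metformin, -0.09 to 0.06 without, -0.03 to 0.05 over both treatments and -0.04 to 0.14 for the interaction. The log2 ratios of the share were taken on all counts, milk protein and mitochondrial genes included. They ran from 0.189 to 0.290 on HFD and 0.121 to 0.265 on NCD for metformin. For HFD they ran from -0.209 to -0.065 with and -0.253 to -0.133 without metformin. The log2 ratio of small to large subunit counts ran from 0.026 to 0.045, 0.024 to 0.042, -0.018 to 0.001 and -0.020 to -0.003 in the same order. Called genes kept their call in 682 of 990 settings, and none reversed. Over these settings the number of positive genes was 78 to 80 for metformin on HFD and 68 to 79 on NCD, and 2 to 70 and 0 to 69 of 80 for HFD with and without metformin. No paired analysis was possible because the labels carry no numbers shared between groups.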
